A study of Homo sapiens with 5 samples.

Results

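The genomic binding sites of Fra-1, the product of FOSL1, were described in LM2 cells from the peak list of 1 ChIP-Seq library. All peaks on chromosomes 1 to 22 and X were taken, which gave 17311 of the 17320 Fra-1 peaks and 17311 of the 59069 peaks called in the series for Fra-1, MYC and E2F1. LM2 is a derivative of the triple-negative breast cancer line MDA-MB-231 that was selected for metastasis to the lung, and the cells used for ChIP-Seq are given as untreated in the labels. The study's text also names LM2 cells with a control vector or an shRNA in connection with ChIP-Seq, so whether the cells of this library carried a vector is not certain. The cells were grown with 10% FBS, fixed for 15 min in 1% formaldehyde, quenched with 125 mM glycine and sonicated to fragments of 200 to 700 bp, and about 5 μg of an antibody against Fra-1 (Santa Cruz, sc-183) was used. Libraries of 275 to 700 bp were amplified by 18 PCR cycles and compared with input DNA of the same cells. An EZH2 library is also among the samples and was not used here. There was 1 library per factor, so no difference given here could be set against a spread between cultures, and intervals are 95% intervals that cover counting error only. The peak lists hold no expression values, and the identity of the cells was not checked from marker genes.

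Fra-1 is a member of the FOS family of leucine zipper proteins. It lacks the strong activation domain of c-Fos and binds DNA only as a dimer, usually with a JUN protein. The dimer, called AP-1, recognises the palindrome-like site TGACTCA, which reads TGAGTCA on the other strand. Fra-1 is stabilised by ERK signalling, and in breast cancer cells of mesenchymal type it is the FOS protein best known for its part in invasion and metastasis.

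Sequences of 61 bases centred on the summit are shown for 8 peaks, to let the motif content of the strongest sites be read directly. The peaks at ATXN7L2 and GADD45B are among the 3 strongest without an AP-1 site, the next 4 are among the 10 strongest of the library, SOCS3 and SLC2A1 show strong peaks with a pair of sites, and capitals mark AP-1 sites. All were read from GRCh37, the sequence of the hg19 build of the peak list.
ATXN7L2 promoter, chr1:110026827-110026887, plus strand: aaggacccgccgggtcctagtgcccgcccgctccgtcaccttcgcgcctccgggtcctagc
GNG7 intron, nearest to GADD45B, chr19:2529651-2529711, plus strand: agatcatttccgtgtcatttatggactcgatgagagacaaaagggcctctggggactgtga
WNT7B intron, chr22:46365125-46365185, plus strand: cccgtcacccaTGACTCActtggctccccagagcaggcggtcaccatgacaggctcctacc
intergenic, nearest to FGFRL1, chr4:1037556-1037616, plus strand: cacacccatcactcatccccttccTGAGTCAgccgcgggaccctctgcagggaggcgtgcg
NEK6 intron, chr9:127072072-127072132, plus strand: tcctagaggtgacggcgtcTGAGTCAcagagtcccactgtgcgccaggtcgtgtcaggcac
nearest to SEC61B, chr9:102196007-102196067, plus strand: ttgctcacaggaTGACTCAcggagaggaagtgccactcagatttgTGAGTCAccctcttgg
nearest to SOCS3, chr17:76325626-76325686, plus strand: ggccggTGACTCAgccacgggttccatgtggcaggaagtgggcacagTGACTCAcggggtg
SLC2A1 upstream, chr1:43432936-43432996, plus strand: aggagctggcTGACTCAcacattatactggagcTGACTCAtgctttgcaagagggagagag
No AP-1 site and no one-letter variant of it lay within 50 bp of the first 2 summits. The other 6 held 1 or 2 copies, and those near FGFRL1, SEC61B, SOCS3 and SLC2A1 held 2, of which 1 near FGFRL1 lies outside the bases shown.

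The AP-1 site lay close to the summits. Within 100 bp on either side, 10608 summits had at least 1 site, and the nearest site was a median of 18 bp from the summit (interquartile range 8 to 34 bp). It was within 10 bp at 3302 of these summits and within 30 bp at 7501 (70.7%). Sites lay to the lower-coordinate side at 5078 summits, to the higher-coordinate side at 5368 and exactly on it at 162, so the distribution was centred on the summit.

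**Figure D1:**
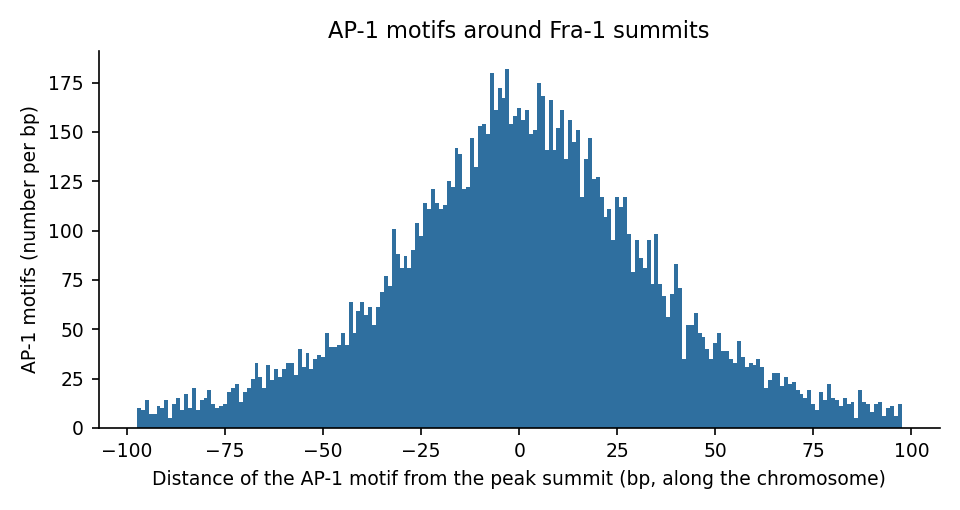
Number of AP-1 sites at each base (vertical axis) by their distance from the Fra-1 summit in bp (horizontal axis), with 1 bar per bp. The sites are densest at the summit, thin out on both sides alike, and had a median distance of 18 bp.

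Peaks with more copies of the site were stronger and wider. The fold enrichment compares the fragments piled up over the summit with the local background. It had a median of 7.54 in the 6795 peaks without a site anywhere inside them (95% interval of the median 7.48 to 7.56). It was 8.45 in 8707 peaks with 1 site (8.38 to 8.59), 11.3 in 1649 peaks with 2 sites (10.8 to 11.6) and 14.9 in 140 peaks with 3 sites (12.5 to 17.0). Median width also went from 166 bp without a site to 225 bp with 2 and 294 bp with 3, and a wider peak has more room for a site, so width and number of copies cannot be told apart here. Among 2022 neighbouring pairs of sites inside a peak, the median spacing was 44 bp, and the most frequent spacings were 11 bp (52 pairs) and 12 bp (51 pairs).

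Most summits without the full site held one that differed by a single letter. Within 50 bp there was no AP-1 site at 8089 summits, and 5303 of these (65.6%, Wilson interval 64.5 to 66.6%) held at least 1 of the 19 one-letter variants, against 27.4% of windows 2 kb away that held no Fra-1 peak and no AP-1 site. A few variants stood out, each counted on either strand. TGACTAA lay at 1296 of these summits, which is 16% of them, and at 0.973% of the side windows. TGAATCA lay at 21.1% of summits and 1.73% of side windows, and the values for TGAGTAA were 10.6% and 1.32%. The variant TGACGCA, which contains CG, was rarer but also stood apart, with 1.78% against 0.148%. By contrast TGAGCCA was less frequent at summits (3.18%) than in side windows (5.25%), as was TGAGGCA (2.93% and 4.44%). Base composition was not matched, and the median GC content was 46.5% at summits and 43.6% beside them.

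Motifs of other factor families were searched in the same windows. The TEAD core GGAATG, bound by the partners of YAP and TAZ, lay at 12.6% of summits and 5.49% of side windows, which is 2.29 times as frequent. Its letters in reverse order lay at 2.54% of summits. GGAATG ends in TG, with which the AP-1 site begins, so a match can share letters with that site or some of its variants. Such matches were not counted apart. The RUNX core TGTGGTT lay at 4.60% and 1.70%, and in reverse order at 1.22% of summits. Both were more frequent where the AP-1 site was missing, with 14.8% against 10.6% for TEAD and 5.54% against 3.77% for RUNX. The cyclic AMP response element TGACGTCA, which JUN and ATF dimers can bind, was found at 68 summits (0.393%). Its share was 0.876% for peaks that overlapped a promoter window and 0.220% for the others. The longer site TGACTCAGC, which is also bound by MAF proteins, lay at 952 summits (5.50%) and 0.117% of side windows. It contains the AP-1 site, so this excess is not separate from that of the AP-1 site. Where the AP-1 site was present, the longer site lay at 10.3% of summits and in 40 of 543 side windows. The GATA core AGATAA was less frequent at summits (4.06%) than beside them (6.48%), and in reverse order it lay at 3.74% of summits. The ETS core CCGGAAG (1.37% against 0.388%) was about as frequent in reverse order (1.28%). Only its forward letters contain CG, so the reverse is not a matched comparison. These are matches of letters and not observed binding of the factors named.

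Only a small part of the AP-1 sites in the genome was at a Fra-1 summit. Known sequence of chromosomes 1 to 22 and X held 456218 sites, of which 10264 (2.25%, Wilson interval 2.21 to 2.29%) lay within 50 bp of a summit. The share was 3.70% for sites in promoter windows, which began 2 kb before and ended 2.5 kb after any annotated TSS, and 2.00% elsewhere. For the 9334 sites under an E2F1 peak of the same cells it was 61.5% (60.5 to 62.5%), and for the other 446884 sites 1.01% (0.983 to 1.04%). The Fra-1 and E2F1 lists were called against the same input library, so these values are not independent of it. The reads were aligned to a masked genome, so a site in masked sequence could not be called, and the number of such sites was not counted.

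The base on either side of the 7-letter site went with a large range in this share. Of 27253 sites ATGACTCAT, 1339 were at a summit (4.91%, 4.66 to 5.18%), and of 22254 sites ATGACTCAC, 1019 were (4.58%, 4.31 to 4.86%). At the other end, 46 of 24688 sites TTGACTCAA were at a summit (0.186%, 0.140 to 0.248%), and 162 of 36138 sites TTGACTCAC (0.448%, 0.384 to 0.523%). All 4 flanks with a T before and all 4 with an A after the site as written here had shares of 1.31% or less, whereas 8 of the other 9 flanks had shares of 3.04% or more. Outside promoter windows the first and last of this order were the same, with 4.55% for ATGACTCAT and 0.181% for TTGACTCAA. Among bound sites the median fold enrichment varied less, from 6.93 at TTGACTCAA (26 peaks) to 9.33 at GTGACTCAG (837 peaks).

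Peak strength covered a wide range. Fold enrichment had a median of 8.24 (8.18 to 8.35) and went from 2.11 to 91.1, pileup from 5 to 143 and width from 111 bp, which was the fragment length estimated by the peak caller, to 1069 bp. Fold enrichment was at least 10 at 5957 peaks (34.4%), at least 20 at 826 (4.77%) and at least 50 at 10. Across the 17311 peaks, which share 1 library and 1 input, Spearman's rho between fold enrichment and width was 0.523 and between fold enrichment and the background recovered from the list −0.304. This background was calculated from the pileup and the fold enrichment itself, so the second rho is not independent of that calculation.

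When the peaks were ranked by fold enrichment and divided into 10 groups of equal size, the AP-1 site was within 50 bp of 70.5% of summits in the strongest 10% (Wilson interval 68.3 to 72.6%) and 43.5% in the weakest (41.2 to 45.9%). Overlap with an E2F1 peak went from 91.6% (90.2 to 92.8%) to 42.7% (40.4 to 45.1%). Median width went from 265 bp to 147 bp. The share of peaks that overlapped a promoter window did not follow strength. It was 26.3% (24.3 to 28.5%) in the strongest group, 24.3% (22.3 to 26.4%) in the weakest and 28.5% as the highest of the groups between. The TEAD core was also at similar shares in the strongest (12.5%, 11 to 14.1%) and the weakest group (13.3%, 11.8 to 15%).

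**Figure D2:**
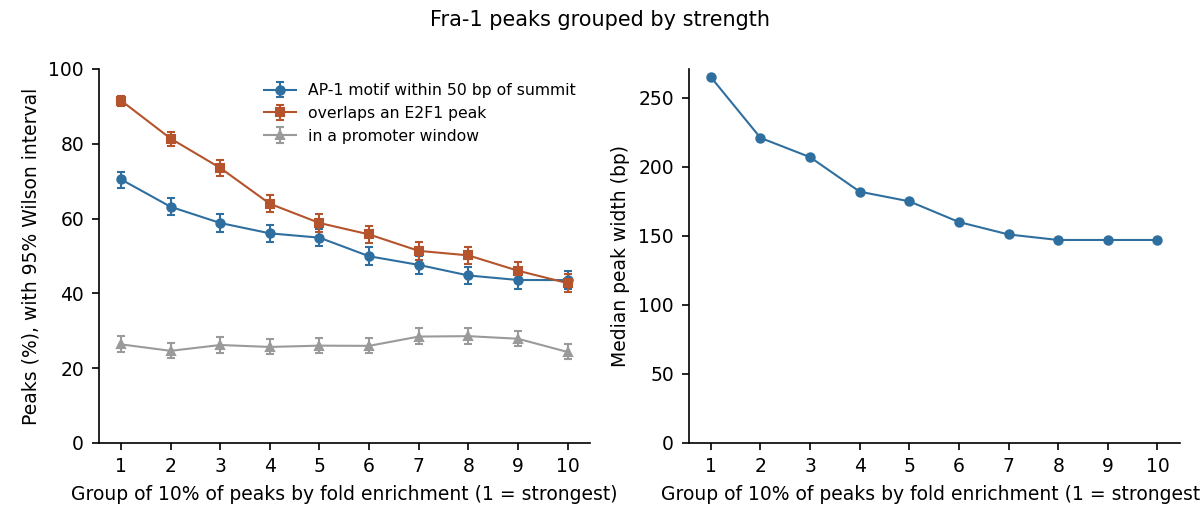
Peaks in 10 groups of equal size by fold enrichment (horizontal axis, 1 is the strongest), with the share of peaks in percent and its 95% Wilson interval on the left and the median width in bp on the right. The AP-1 share goes from 70.5% to 43.5% and the overlap with E2F1 peaks from 91.6% to 42.7%. The share of peaks that overlap a promoter window stays between 24.3% and 28.5%.

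The strongest peak of the library lay 70 bp upstream of the TSS of DRAP1, a corepressor subunit that pairs with the TBP-binding protein DR1 (chr11:65686710-65686997, fold enrichment 91.1, pileup 130). The second lay 330 bp downstream of the TSS of ATXN7L2 (chr1:110026704-110027032, 66.3, pileup 94). In neither was an AP-1 site or a one-letter variant found within 50 bp of the summit, and in both the GC-rich SP/KLF core GGGCGG was. The other 8 of the 10 strongest peaks each had at least 1 AP-1 site. They included a peak in an intron of WNT7B, a WNT ligand (65.2), a peak 32.2 kb from the TSS of FGFRL1, an FGF receptor without a kinase domain (63.7), a peak in an intron of NEK6, a mitotic kinase (58.3), and a peak in an intron of PC, 35.3 kb from LRFN4 (57.5). A peak in EHD1, nearest to CDC42BPG, had a fold enrichment of 62.3, and a peak 7.12 kb upstream of PTPRH, a receptor phosphatase, 50.2. The remaining 2 were far from any coding gene, 219 kb upstream of SGK1, a kinase induced by serum and glucocorticoids (50.7), and 211 kb from SEC61B, a subunit of the ER translocon (50.5).

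Of the strongest 10% of peaks, 511 peaks had no AP-1 site within 50 bp of the summit. They were close to the 1220 with a site in median fold enrichment (19.1 and 19.98) and width (273 and 263 bp). Overlap with E2F1 peaks was 94.5% without and 90.3% with a site, and the median GC content was 48.5% and 51.5%. Within 1 kb of the TSS of a protein-coding gene lay 22 of the 511 (4.31%, Wilson interval 2.86 to 6.43%) and 42 of the 1220 (3.44%, 2.56 to 4.62%), so the promoter position of the peaks at DRAP1 and ATXN7L2 was not shared by most strong peaks without the site.

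How far the summits lay from a TSS depended on the set of TSS used. The distance to the nearest canonical TSS of a protein-coding gene had a median of 49.4 kb (48.0 to 51.0 kb), against 82.7 kb for a grid of known bases of the genome. To the TSS of every annotated transcript the median was 8095 bp (7843 to 8360 bp). Of the peaks, 4567 (26.4%) overlapped a promoter window of any annotated TSS, and the share of the genome in these windows is not given here. The values that follow use the canonical TSS of protein-coding genes. Within 1 kb of such a TSS lay 931 summits (5.38%), in sequence that made up 1.32% of the genome, which is 4.07 times its share. Between 1 and 100 kb the share of summits was from 1.13 to 1.5 times that of the sequence, and beyond 500 kb it was 0.338 times. Of all summits 56.5% lay downstream of their nearest TSS, as did 56.7% of the grid.

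The summits nearest to a TSS had a different makeup. Within 1 kb the AP-1 site was at 34.4% of summits (Wilson interval 31.4 to 37.5%), whereas it was at 56.0% between 1 and 5 kb (53.3 to 58.7%) and at 49.5% beyond 500 kb (45.9 to 53.1%). The median fold enrichment within 1 kb was 7.40 (7.14 to 7.57) and that between 1 and 5 kb 8.56 (8.36 to 8.76). Overlap with an E2F1 peak went steadily from 93.6% within 1 kb to 41.0% beyond 500 kb.

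**Figure D3:**
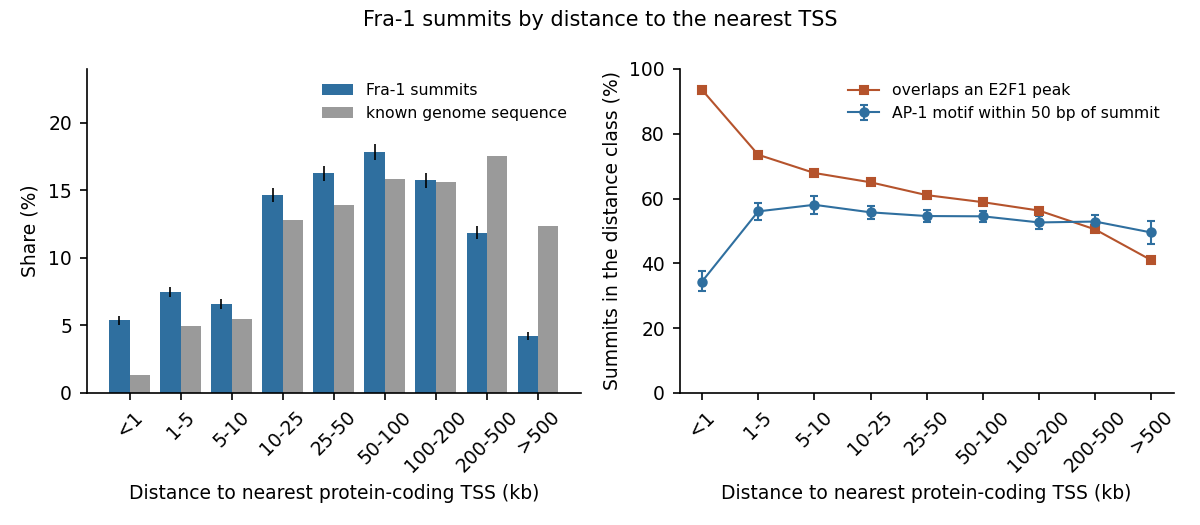
On the left, the share of Fra-1 summits (blue, with 95% Wilson intervals) and of known genome sequence (grey) in percent by distance to the nearest protein-coding TSS in kb; on the right, the share of summits in each class with an AP-1 site within 50 bp (with 95% Wilson intervals) or overlapping an E2F1 peak. Within 1 kb the summits exceed the sequence 4.07 times, and the AP-1 share there is 34.4%.

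Summits gathered along the chromosomes. The median gap between neighbouring summits was 52.9 kb and the mean gap 169 kb. With neighbouring summits at most 10 kb apart counted as a cluster, 6541 summits (37.8%, Wilson interval 37.1 to 38.5%) were in 2712 clusters. Of these, 2003 held 2 summits, 492 held 3, and the largest held 11. In the E2F1 and MYC lists 71.8% and 46.9% of summits were in clusters, but with the Fra-1 list and the E2F1 list reduced to the size of the MYC list by −log10 q the shares were 19.3% and 18.6%.

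Clusters with many summits had more overlap with E2F1 peaks and fewer AP-1 sites. E2F1 peaks overlapped 54.6% of single Fra-1 peaks (53.6 to 55.5%), 71.7% in clusters of 2 to 4 (70.5 to 72.8%) and 85.7% in clusters of 5 or more (82.7 to 88.3%). The AP-1 site was at 54.5% (53.6 to 55.5%), 51.7% (50.4 to 53.0%) and 45.9% of summits (41.9 to 49.9%). Without the summits in TTC3, described below, the last of these shares was 47.2%. Median fold enrichment was 8.10 for single summits and 9.02 in the largest clusters (8.39 to 9.61).

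The cluster with the most summits spanned 51.3 kb of chromosome 14 in PRKCH, a protein kinase C of epithelia, and the overlapping gene ENSG00000258989, with 11 summits. The second held 10 summits in 29.0 kb of chromosome 11 over CCDC85B, FOSL1, C11orf68 and DRAP1, with a summed fold enrichment of 221, the highest of the 5 clusters with the most summits. The next 2 held 9 summits each, in TTC3 on chromosome 21 and near PRSS23, a serine protease, on chromosome 11. Another, with 8 summits near SOCS3, a feedback inhibitor of cytokine signalling, had an AP-1 site at 6 of them, whereas none of the 9 summits of the TTC3 cluster had one. Whether the TTC3 peaks mark Fra-1 on the gene itself was not tested, and all peaks in this gene are described below.

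The FOSL1 locus thus held the Fra-1 peak with the largest fold enrichment of the library. From the TSS of FOSL1, the 10 summits lay between 19.0 kb upstream and 10.0 kb downstream in the direction of transcription. The 3 strongest were upstream, with fold enrichments of 24.2 at 2.94 kb, 43.0 at 15.5 kb and 91.1 at 19.0 kb, which is the DRAP1 promoter. The peaks at 15.5 and 19.0 kb had similar pileups, 128 and 130, and recovered backgrounds of 2.00 and 0.438. The 2 peaks at the start of FOSL1 itself had 12.6 and 15.1, and the 3 downstream of the gene 4.24 to 8.17. Only 3 of the 10 summits had an AP-1 site, and all 10 overlapped an E2F1 peak.

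KLF6, a zinc finger transcription factor of the KLF family, had the most summits of all protein-coding genes within 50 kb of its TSS, with 17. Of these, 7 were upstream and 10 downstream, the strongest had a fold enrichment of 13.6, 7 had an AP-1 site and 14 overlapped an E2F1 peak. The gene was the nearest coding gene of 38 summits. SOCS3 and SMAD3, which carries TGF-beta signals to the nucleus, had 12 summits each, with a strongest fold enrichment of 47.0 and 22.5. The unnamed gene ENSG00000258989 also had 12, and SEPTIN9, a cytoskeletal GTPase, and ACTN4, an actin crosslinker, had 11. EFEMP2, CTSW, FIBP and CCDC85B had 10, which were those of the FOSL1 cluster.

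TTC3, a ubiquitin ligase gene, stood apart from every other gene. It held 21 Fra-1 summits over its 130 kb, and all 21 lay in its annotated exons, which made up 12.3% of its length. Of the other protein-coding genes, 81 had 2 summits in exons, 14 had 3 and none had more. The fold enrichment of the 21 peaks was 6.45 to 25.5 with a median of 11.1, 1 of them had an AP-1 site and 3 overlapped an E2F1 peak. The widest peak of the library, of 1069 bp, was among them. The MYC list had 7 summits in TTC3, all 7 in exons, and the E2F1 list 5, of which 3 were in exons. Whether these peaks mark binding of Fra-1 to the gene in the genome was not tested, so the 21 summits are counts of called peaks only. Without them the AP-1 share at summits was 53.3% and the share in clusters 37.7%.

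**Figure D4:**
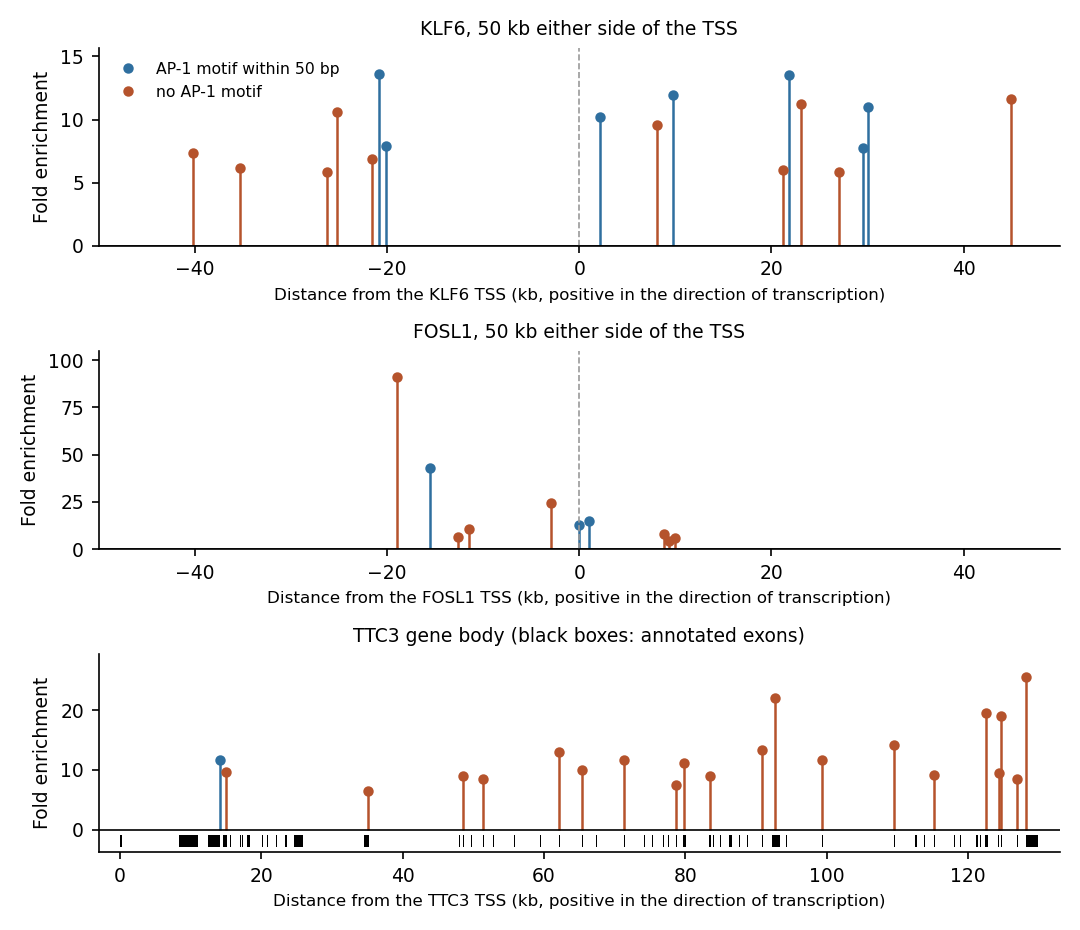
Fold enrichment of each Fra-1 summit (vertical axis) by its distance from the TSS in kb (horizontal axis) at KLF6, FOSL1 and TTC3, in blue where an AP-1 site lay within 50 bp and in orange where none did; black boxes are the exons of TTC3. KLF6 has 17 summits with fold enrichments of 5.84 to 13.6, FOSL1 has its largest fold enrichment at 19.0 kb upstream, and the 21 summits in TTC3 sit over exons.

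The density of peaks varied between chromosomes. It was 6.10 per Mb of known sequence in all, with the highest value on chromosome 17 (10.1), then 20 (9.13) and 10 (8.39), and the lowest on X (2.00) and 18 (3.76). Of the AP-1 sites on chromosome 17, 3.49% were at a summit (3.19 to 3.83%), and of those on X 0.865% (0.752 to 0.995%). The median background on X (0.926) was the lowest of the 23, and copy number was not measured. Over the 23 chromosomes, Spearman's rho of peak density was 0.646 with gene density and 0.865 with the density of E2F1 peaks. Of 2790 windows of 1 Mb, 344 (12.3%) held no peak, the fullest held 42, and the densest 10% of the windows held 30.5% of the peaks.

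Of the 20098 protein-coding genes, 9057 (45.1%) had at least 1 summit within 50 kb of the TSS, 471 had 5 or more and 20 had 10 or more. This share is the background for the gene lists that follow, and the nearest summit was a median of 60.0 kb from the TSS of all genes. A member said to have none had no summit within 50 kb of its TSS, but could have one just beyond or farther inside the gene. The lists are described by counts, since genes that lie close together share summits and the members were chosen with results of these data known. Of the 24 lists, 18 were above all genes at each of the 5 settings tried, 3 were below at each, and 3 changed side. The side says nothing of the size of the gap, and some gaps were small. Chromosome-segregation genes, counted as above, were at 16.7% within 10 kb against 15.9% of all genes.

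Genes of the AP-1 family itself were often near a summit. Of 17 members 14 (82.4%, Wilson interval 59.0 to 93.8%) had one, with a median of 6.60 kb to the nearest summit. FOSL1 had 10, the small MAF genes MAFK and MAFF 6 each, and FOSB, FOSL2 and JUN 5 each. The nearest summit of JUN was 42 bp from its TSS. ATF2, ATF7 and BATF had none.

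Genes that act on the ERK pathway above Fra-1 showed similar counts. Of 17 feedback inhibitors of MAPK signalling 14 had a summit (82.4%). DUSP1, a phosphatase that inactivates MAP kinases, had 9, one of them 161 bp from its TSS. DUSP5 and DUSP6, which are specific to ERK, had 6 each, SPRY1 had 4, and SPRY2 and DUSP2 had none. Of 12 genes of the EGFR family and its ligands, 8 had a summit (66.7%, 39.1 to 86.2%), with 5 near EGFR, 3 near HBEGF and 2 each near TGFA, EREG and ERBB2, and this list was not above all genes at every setting. The peak with a fold enrichment of 49.0 in an intron of EGFR was 114 kb from its TSS and is not among these 5.

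In the TGF-beta pathway 16 of 21 genes had a summit (76.2%, 54.9 to 89.4%). After SMAD3 came TGFBI, a secreted matrix protein induced by TGF-beta, with 7, the corepressor SKI with 6 and the receptor TGFBR2 with 5. SMAD2, SMAD4 and TGFB3 had none. Of 29 targets and partners of YAP and TEAD, 24 had a summit (82.8%, 65.5 to 92.4%), and 10 had one in the promoter window of their canonical TSS. CCN1, a secreted adhesion ligand, had 10 summits, MYOF, a membrane repair protein, 8, and AMOTL2, an inhibitor of YAP, 6. CCN2 had 3, the nearest 96 bp from its TSS, and TEAD2, TEAD3 and TEAD4 had none.

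Genes of cell adhesion and the matrix were among the highest lists. Of 21 matrix proteases and plasminogen system genes 18 had a summit (85.7%, 65.4 to 95%), the highest share of the 24 at 50 kb. At other settings it was not the highest, since the YAP and TEAD list had 58.6% against its 57.1% within 10 kb and 96.6% against 85.7% within 100 kb, and the focal adhesion list 92.6% against 61.9% in the gene body with 10 kb either side. PLAU, the urokinase that activates plasminogen, had 7 summits with a strongest fold enrichment of 33.8. TIMP2 had 7, MMP1 5, and MMP2, TIMP1 and ADAM10 none. MMP1, MMP3 and MMP10 shared their strongest peak (11.5), so these are not separate observations.

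Integrins had a summit at 16 of 20 genes (80%, 58.4 to 91.9%), with 9 at ITGA3, 7 at ITGB4 and 6 each at ITGB6 and ITGB3. Laminins had one at 9 of 11 (81.8%, 52.3 to 94.9%), with 7 at LAMB3, 6 at LAMA5 and 3 at LAMA3. Laminins are structural proteins of basement membranes. Focal adhesion and actin linkage genes had one at 22 of 27 (81.5%, 63.3 to 91.8%), with 11 at ACTN4, 7 at the kinase PTK2, where the strongest had a fold enrichment of 35.0, and 6 at the myosin MYH9. TLN2, PARVA and TPM1 had none within 50 kb, and the nearest summits of TLN2 and TPM1 lay 54118 and 54529 bp from their TSS. In the gene body with 10 kb either side, 25 of the 27 genes had a summit.

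Of 23 inflammatory cytokines and CXCL chemokines 18 had a summit (78.3%, 58.1 to 90.3%). LIF, a cytokine of the IL-6 family, had 8, the neutrophil chemokine CXCL8 5 and IL6 3, and the nearest to CXCL8 was 62 bp from its TSS. CXCL1 and CXCL6 shared their strongest peak (6.91), as did CXCL3 and CXCL5 (6.52), so these are not separate observations. CCL2, TNF and PTGS2 had none. The summit nearest to TNF was 2014817 bp away, and whether reads could be placed in the sequence between was not checked. S100 genes, which encode small calcium-binding proteins and mostly lie close together on chromosome 1, had a summit at 12 of 15 (80%, 54.8 to 93.0%). S100A2, S100A6 and S100A10 had 6 each, and S100A2 and S100A6 shared their strongest peak (33.1) with S100A3, S100A4, S100A14 and S100A16, so these are not separate observations.

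Of the lists of epithelial state, both the basal and the luminal list had members with summits. The list of basal keratins and markers had a summit at 9 of 11 genes (81.8%, 52.3 to 94.9%), with 9 at KRT80, 7 at KRT23 and 5 at KRT86. KRT15 and KRT81 had 4 each, KRT14 had 2, KRT16 and KRT17 had 1 each, and KRT5 and KRT6A had none. Whether the members of this list mark basal cells of the breast was not checked. Luminal identity genes had one at 10 of 19 (52.6%, 31.7 to 72.7%). The intervals of these lists overlap, the difference was not tested, and within 100 kb the shares were 81.8% and 78.9%. KRT14 and KRT15 of the basal list and KRT19 of the luminal list also shared their strongest peak (19.4). The same held for KRT8 and KRT18 of the luminal list (16.4), and for KRT81 with KRT86 (16.7) and KRT16 with KRT17 (10.1) of the basal list. These are not separate observations. Among the luminal genes KRT8 had 6 summits, KRT19, KRT18 and CLDN7 4 each, GRHL2 and EPCAM 3 each, and TFF1, CLDN4 and GATA3 2 each, one of those of TFF1 339 bp from its TSS. SPDEF had 1, and those with none included ESR1, PGR, FOXA1, XBP1, TFF3, ELF5, CLDN3 and MUC1. Of 15 mesenchymal factors and cadherins 9 had a summit (60%, 35.7 to 80.2%), with 7 at VIM, which encodes vimentin, and 6 at SNAI1, and none at SNAI2, ZEB2, TWIST1 or CDH2.

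Genes tied to the study's signature were also counted. Of the 31 genes of the Fra-1-dependent poor-prognosis signature, which was chosen by the study on Fra-1 depletion in these cells and is not independent evidence, 22 had a summit (71.0%, 53.4 to 83.9%). The counts in its nine-gene set were 6 for ADORA2B, an adenosine receptor, 5 for SFN, 4 for ABHD11, 3 for SH3GL1, 2 for IGFBP3, and 1 each for PTP4A1 and EZH2. These are counts within 50 kb, whereas the study describes binding of its factors in the promoter regions of these genes. Only SFN and SH3GL1, 2 of 9, had a summit in the promoter window of their canonical TSS, against 1422 of all 20098 genes. Within 10 kb 3 of 9 had one (33.3%, against 15.9% of all genes). E2F1 and PAICS had none, and their nearest summits were 103423 bp and 205344 bp away. Of 16 lung metastasis genes of the LM2 line 9 had a summit (56.3%, 33.2 to 76.9%), with 8 at ID1, 5 at MMP1 and 4 each at TNC and KRT81, and none at VCAM1, MMP2 or IL13RA2.

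Among lists of general cell function, glycolysis had a summit at 15 of 21 genes (71.4%, 50.04 to 86.2%), with 5 at the glucose transporter SLC2A1 and the enolase ENO1 and 4 at PFKP, where the strongest had a fold enrichment of 41.8. Cytosolic ribosomal proteins had one at 26 of 40 (65%, 49.5 to 77.9%) with at most 4, at RPL23, but in the gene body with 10 kb either side they were at 32.5% against 33.4% of all genes. DNA replication genes had one at 15 of 34 (44.1%, 28.9 to 60.5%), none with more than 3, although CDC6, which loads the replicative helicase, had a peak of 45.4 at 26.9 kb, which lies in an intron of RARA, 5.61 kb from the TSS of that gene. Chromosome-segregation genes had one at 13 of 24 (54.2%, 35.1 to 72.1%), led by SPC24 with 5.

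Of the lists from other tissues, the hepatocyte and neuronal lists were below all genes at each setting, and lymphocyte genes changed side. Some of these gaps were small. Within 10 kb hepatocyte genes were at 15% against 15.9% of all genes, and neuronal genes at 5%. In the gene body with 10 kb either side both lists were at 30% against 33.4%. Lymphocyte genes had a summit at 10 of 20 (50%, 29.9 to 70.1%), at 17 of 20 within 100 kb (85%, against 63.9% of all genes) and at 6 of 20 in the gene body with 10 kb either side (30%, against 33.4%). Within 50 kb hepatocyte genes had one at 6 of 20 (30%, 14.5 to 51.9%), with 3 at SERPINA1, and neuronal channels and receptors at 4 of 20 (20%, 8.07 to 41.6%), with 2 at GRIN1. The median distance to the nearest summit was 51.2, 111 and 108 kb in these lists.

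**Figure D5:**
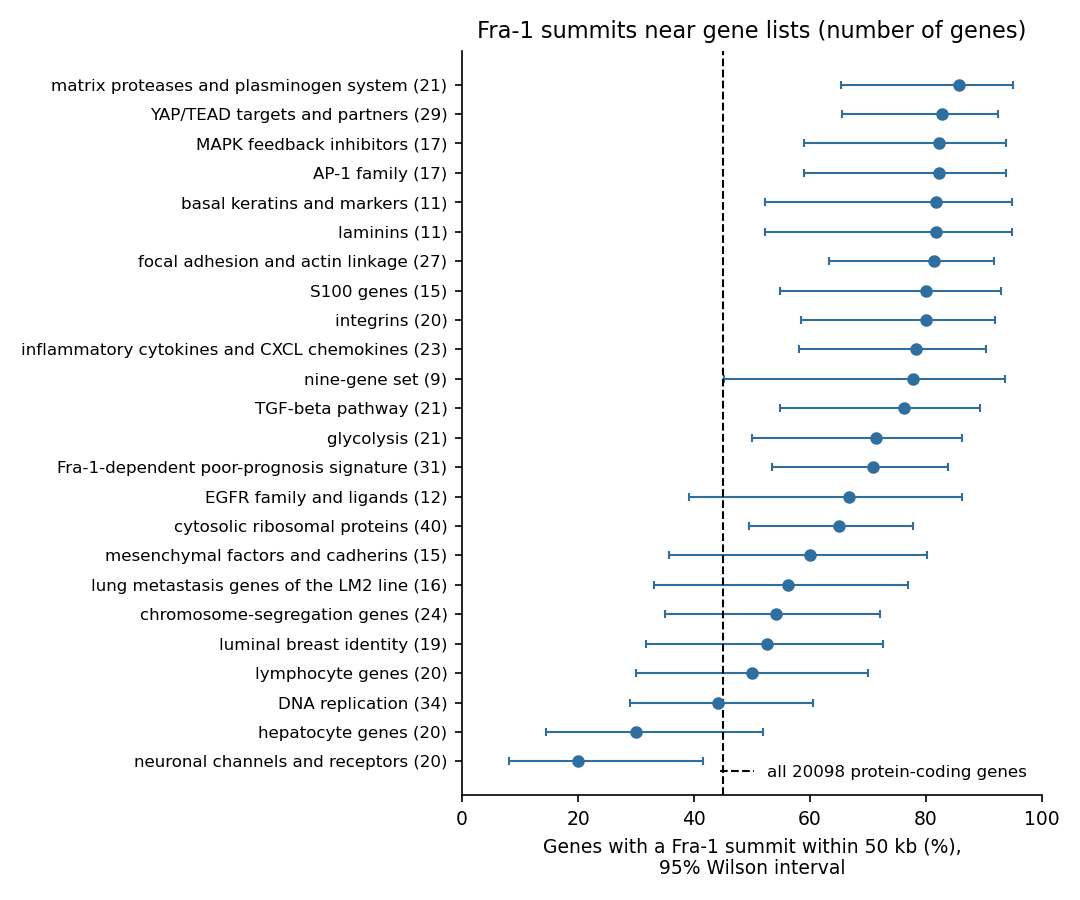
Share of genes with at least 1 Fra-1 summit within 50 kb of the TSS in percent (points, with 95% Wilson intervals) for 24 gene lists, with the number of genes in brackets; the dashed line is the share of all 20098 protein-coding genes (45.1%). The matrix protease list is highest at 85.7%, and the neuronal and hepatocyte lists are lowest at 20% and 30%.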

How the data were processed

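The peak lists deposited by the authors were used as they are. Per the submitters' processing notes, tools were Trimmomatic 0.27, Bowtie 0.12.5, SAMtools and MACS2 2.0.10. According to the methods, reads were aligned uniquely to a masked hg19 genome, duplicates were removed, and MACS2 called peaks per library against 1 input at a q-value cutoff of 0.01. Per the file headers, MACS2 (2.0.10.20120913) kept 12931227 of 19072119 Fra-1 tags and 10758036 of 23219275 input tags, at most 1 per position. The ratio of kept input tags to kept Fra-1 tags, calculated here, was 0.832. It was taken as the scale applied to the Fra-1 signal, so the deposited signal was read as a scaled pileup. The deposited fold enrichment divides this pileup by the local background, a ratio with a pseudocount, from which the background was recovered. The deposited p- and q-values are −log10 values. Depth limits which weak sites were called.

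Summits were compared with GRCh37 and GENCODE 44 mapped to it (20098 protein-coding genes; for 279 without a canonical transcript the 5′ end was used). For motifs, both strands were read up to 50 bp from each summit and in windows 2 kb to either side. Overlap was counted from 1 bp. Intervals are Wilson intervals for shares and binomial order-statistic intervals for medians. No test was made. Procedures were tested on simulated data. Members and gene lists were chosen with earlier results of these data known. Named genes were the nearest coding genes of the 10 strongest peaks and the 10 genes with the most summits within 50 kb. Also named were genes in the 5 largest clusters, the leading members of each list (at most 4) and the nine-gene set. Members without a summit and further basal and luminal genes were added after their values were seen. So were TTC3 values beyond its cluster, the EGFR peak, SLC2A1, CDC6, JUN and similar single peaks. Values of a few genes that the rule names are not reported here. Alternatives were other motif windows, midpoints, thresholds, cluster gaps, TSS sets and gene windows, and the omission of peaks in TTC3, added after seeing the data. Software was pysam 0.24.0, scipy 1.17.1, numpy 2.4.6, pandas 2.3.3 and matplotlib 3.10.9 under Python 3.11.15.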

Additional observations from a re-analysis of the deposited data

Results flagged for a closer look

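Outside chromosomes 1 to 22 and X, 9 Fra-1 peaks were called, all on the unplaced sequence chrUn_gl000220, which is not part of the comparisons above. They are listed because they are signal in data outside the main measurement. Their fold enrichment was 2.46 to 9.18 with a median of 3.04, the median background there was 13.7 against 1.89 on the other chromosomes, and 0 of the 9 summits had an AP-1 site. The MYC list had 8 peaks and the E2F1 list 7 on the same sequence. The origin of these peaks was not tested.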

How the results depend on the processing

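There were no replicates to leave out. No paired analysis was possible because there was 1 library per factor. Peaks with a −log10 q of at least 5 gave a median fold enrichment of 8.63, an AP-1 share of 54.7%, a share in clusters of 36.2% and a share of genes with a summit of 42.5%. Merging of peaks within 1 kb gave a median fold enrichment of 8.38 and a share in clusters of 30.6%. The 4857 strongest peaks by −log10 q had a median fold enrichment of 14.2. The AP-1 share was 35.5% within 25 bp, 61.3% within 100 bp, 51.2% around peak midpoints and 54.3% at a fold enrichment of at least 5. The difference between the strongest and the weakest 10% of peaks was 26.9 percentage points, and 31.7 when peaks were ranked by −log10 q. The share in clusters was 27.1% with gaps of 5 kb and 51.0% with gaps of 20 kb. The median distance to the TSS of any annotated transcript was 8095 bp. The share of genes with a summit was 15.9% within 10 kb, 63.9% within 100 kb and 33.4% in the gene body with 10 kb either side. The number of lists above all genes was 21, and 19 to 21 under the alternatives. The lists that changed side were the EGFR family and ligands, cytosolic ribosomal proteins and lymphocyte genes. Shares of genes and summits in clusters thus depend on the distance allowed. Omission of the TTC3 peaks left each of the 6 values it was tried on within its counting interval. With 1 library and an input of 10758036 tags, weak sites and sites in masked sequence cannot be judged absent.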
